A study of Caenorhabditis elegans with 32 samples.

Results

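The comparison described here set whole adult worms of the strain csb-1(ok2335) on vehicle against the wild-type strain Bristol N2 on vehicle, on 4 one-colour arrays each, 8 of the 32 arrays in the series. The arrays were chosen by their labelled genotype and treatment alone, so no measured value took part in the choice. Worms were synchronised by egg lay, grown at 25 °C on standard plates, given water as vehicle and collected whole at day 7 of adulthood. All groups, N2 included, were grown the same way, and the methods give, for the study in general, plates with the drug FUDR from the last larval stage, which blocks the growth of progeny. The other 24 arrays held N2, either single mutant (csb-1(ok2335) or csa-1(tm4539)) or a strain with both alleles, called the double mutant, on vehicle or on 500 µM nicotinamide riboside (NR, a precursor of NAD+), and were used below for the spread of each gene and to follow the called genes elsewhere. Each mutation was studied as 1 allele, and each sample pooled RNA of every tissue, so fewer cells of a type and less RNA per cell cannot be told apart.

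csb-1 is the worm counterpart of human CSB (ERCC6), an ATPase that is drawn to RNA polymerase II stalled at DNA damage and starts transcription-coupled nucleotide excision repair. csa-1 is the counterpart of CSA (ERCC8), the substrate receptor of a ubiquitin ligase that acts in the same step. Loss of either human gene causes Cockayne syndrome, and in worms this branch of repair protects transcribed genes, chiefly in cells that no longer divide.

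The values are Z-scores: the log2 signal of each probe, minus the mean of its array and divided by that array's standard deviation, so that 0 is the average probe. A difference in Z was multiplied by 3.74, the mean standard deviation of log2 signal over the arrays, to give a log2 change of csb-1(ok2335) minus N2, and its standard error (SE) comes from the limma fit over all 32 arrays. A gene was called when its adjusted p was at most 0.05, its Z-ratio (the change divided by the standard deviation of all genes' changes) was at least 1.5 in size and its mean Z over both groups was above 0. Spots well above background made up 46.9% to 73.6% of the N2 arrays and 53.1% to 78.3% of the csb-1(ok2335) arrays, with the lowest shares on N2 replicate 1 and csb-1 replicate 4. Arrays within a group correlated at 0.938 to 0.977 in N2 and at 0.965 to 0.988 in csb-1(ok2335). N2 on vehicle filled 1 slide and csb-1(ok2335) on vehicle another, so slide and genotype cannot be told apart in any value below.

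The array carries 7 probes for csb-1, and 1 of them, A_12_P159795, was lower in the mutant. Its Z-scores were −0.206, −0.332, 0.0610 and −0.0892 in N2 and −0.721, −1.02, −0.629 and −1.01 in csb-1(ok2335), with no overlap between the groups. The log2 change was −2.63, with an exact two-sided permutation p of 0.0286, the smallest that 4 arrays against 4 can give. This probe was well above background on 3 N2 arrays and on 1 csb-1(ok2335) array, and its change was −1.03 with normexp and quantile normalization and −3.10 with quantile normalization alone. The other 6 probes lay within 0.13 of N2 on the log2 scale, with exact permutation p between 0.743 and 1. Where each probe lies relative to the ok2335 lesion was not examined here, so those 6 check nothing about the label. The single csa-1 probe had a mean Z of −0.189 ± 0.186 (SD, n = 4) in N2 and −0.00598 ± 0.120 (SD, n = 4) in csb-1(ok2335), a log2 change of 0.68 (exact permutation p = 0.143).

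Of 25497 genes tested, 42 (0.165%) were called higher in csb-1(ok2335) and 124 (0.486%) were called lower. Scaled to each array's 75th percentile of signal, 38 were called higher and 33 lower. With csa-1 NR replicate 4, an array whose label is in doubt, left out of the fit, 51 were called higher and 171 lower. The median gene changed by 0.02 on the log2 scale. The genes called higher had a median log2 change of 1.28, and 28 of them changed by at least 1. The genes called lower had a median size of 0.97, and 59 fell by at least 1. In 39 of the 42 genes called higher all 4 arrays of one group lay beyond all 4 of the other. The same held for 103 of the 124 called lower. Over the whole array 223 genes (0.875%) lay apart with csb-1(ok2335) above and 351 (1.38%) with it below. The calls used the same values, so this separation is no separate support for them.

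**Figure D1:**
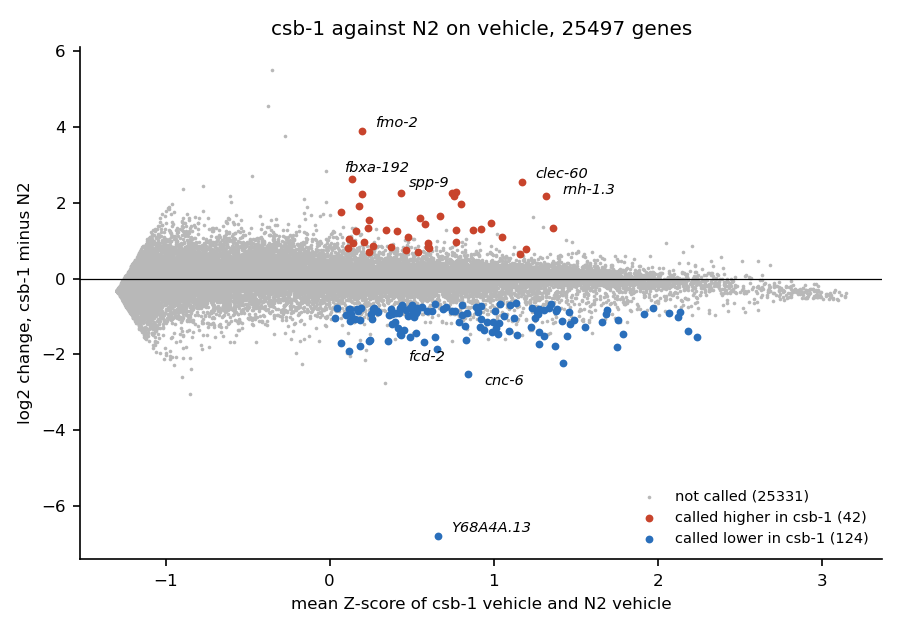
Log2 change of csb-1(ok2335) minus N2 on vehicle (vertical axis) against the mean Z-score of both groups (horizontal axis) for 25497 genes, with the 42 genes called higher in red and the 124 called lower in blue. Y68A4A.13 at −6.79 and fmo-2 at 3.89 lie farthest from 0 among the called genes.

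These counts rest on the spread estimated over the whole series. Array weights, lower where an array strays more from its group, were 0.121, 0.341, 0.326 and 0.758 for N2. For csb-1(ok2335) they were 2.14, 0.445, 1.62 and 0.283. The main fit did not use them. Fitted on the 8 arrays alone, 1 gene was called higher (F57G4.7) and 1 lower (Y68A4A.13), with 885 genes at an unadjusted p under 0.05, and on the 16 vehicle arrays 17 and 19 were called. Leaving out 1 of the 8 arrays gave 24 to 244 genes called higher and 38 to 370 called lower. Both highest counts came without N2 replicate 3, which was the N2 array nearest the csb-1(ok2335) mean in 19 of the 42 genes called higher and 75 of the 124 called lower, against 24.2% of all genes. The count of lower genes also fell to 49 without N2 replicate 4, 38 without csb-1 replicate 1 and 40 without csb-1 replicate 3, and it was 70 without N2 replicate 2 or csb-1 replicate 4. Without N2 replicate 1 26 genes were called higher, without csb-1 replicate 3 24 were, and without csb-1 replicate 2 189 were called lower. All 166 genes kept their direction throughout, which the reuse of the remaining arrays makes likely. Of them 53 (20 higher, 33 lower) kept their call whichever 1 array was left out.

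The gene with the largest change was Y68A4A.13, a protein-coding gene with no given name. Its Z-scores were 1.64, 1.60, 1.45 and 1.58 in N2 and −0.266, −0.218, −0.213 and −0.286 in csb-1(ok2335). Every N2 array placed it far above the average probe and every mutant array placed it below. The log2 change was −6.79 ± 0.93 (SE, n = 4 arrays a group, limma adjusted p = 0.000198), about 110-fold under the main scaling. Over the alternatives the log2 change ran from −6.93 to −5.27. The gene stayed well above background on all 8 arrays. With csa-1 NR replicate 4, an array of doubtful label, left out of the fit, the SE was 0.19 and the limma adjusted p 3.81e-19. The label of that array was doubted partly from this gene's own value, so the smaller p is no separate support. Y68A4A.12, which shares the clone name, had Z-scores of −0.892, −0.373, −0.296 and −0.224 in N2 and −1.25, −1.34, −1.45 and −1.01 in the mutant. It was well above background on 3 N2 arrays and on no csb-1(ok2335) array. Under the main scaling this puts it at least 1.99-fold lower in the mutant (adjusted p = 0.00270). Over the alternatives its fitted log2 change was as small as −0.74, and its limma adjusted p as high as 0.301. It was too dim to count as called and was chosen after its values were seen, as were F22B8.2 and the F57G4 genes below.

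Another gene ran the other way. F22B8.2 had Z-scores of −0.919, −1.15, −1.25 and −1.02 in N2, not well above background on any array, and 0.360, 0.473, 0.319 and 0.375 in csb-1(ok2335), well above background on all 4. Under the main scaling it was at least 12.6-fold higher in the mutant (adjusted p = 0.00192). Over the alternatives its fitted log2 change was as low as 2.45. For both, the bound sets the bright group's mean against the higher of the dim probe's own signal and the lowest signal well above background on each dim array.

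Among the listed DNA repair genes 1 was called. fcd-2, the counterpart of human FANCD2, which acts in the repair of crosslinks between DNA strands, had Z-scores of 0.842, 0.779, 0.830 and 0.749 in N2 and 0.393, 0.337, 0.401 and 0.288 in csb-1(ok2335). The 2 groups did not overlap, and the log2 change was −1.67 ± 0.20 (SE, adjusted p = 9.75e-05), about 3.17-fold lower. It was the 1 gene called of the 53 for DNA damage signalling and other repair (1.89%, against 0.486% of all genes called lower). The median change of the 53 was 0.11 with 40 above 0, against 52.3% of all genes. None of the 29 nucleotide excision repair genes was called in either direction, where 0.165% of all genes were called higher and 0.486% lower. Their median log2 change was 0.07, with a range from −0.21 to 0.68 that ends at csa-1 itself. A gene that was not called was not thereby shown to be unchanged.

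**Figure D2:**
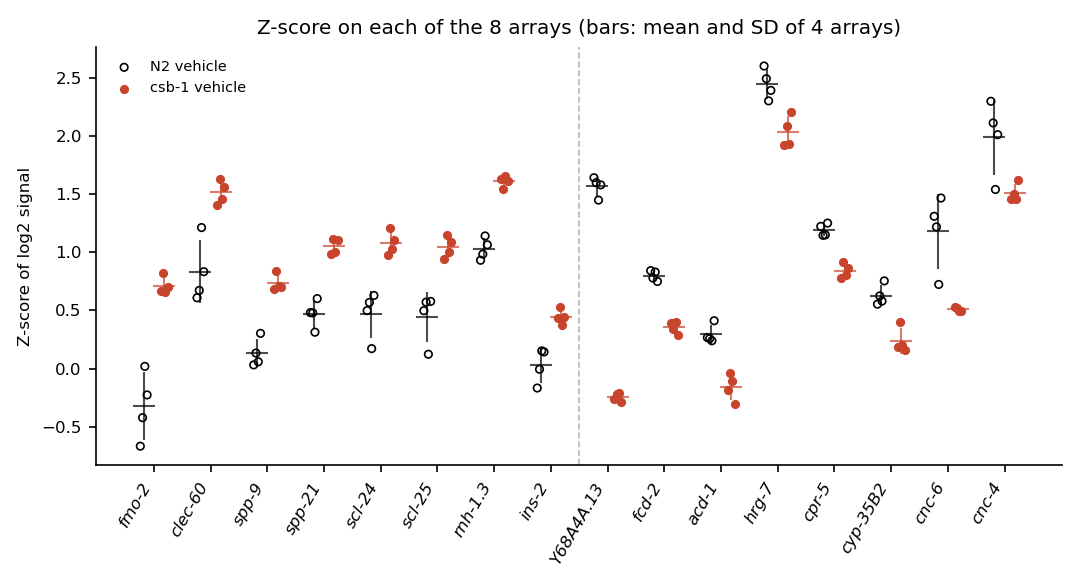
Z-score of log2 signal (vertical axis) on each N2 vehicle array (open black) and csb-1(ok2335) vehicle array (filled red) for 16 genes, with the mean and SD of 4 arrays as bars. Genes left of the dashed line were higher in the mutant and those right of it lower, and the groups overlap for cnc-4, where N2 replicate 3 at 1.54 lies below the highest mutant array at 1.62.

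fmo-2, a flavin-containing monooxygenase that extends worm lifespan when overexpressed, rose most among the called genes. Its Z-scores were −0.668, −0.423, 0.0185 and −0.227 in N2 and 0.663, 0.824, 0.662 and 0.706 in csb-1(ok2335). All mutant arrays lay above all N2 arrays, and 1 of the N2 arrays was not well above background. The log2 change was 3.89 ± 0.43 (SE, adjusted p = 2.73e-05), about 14.8-fold. Over the alternatives it ran from 2.56 to 4.32, with a limma adjusted p as high as 0.0666. Its relatives went the other way, since fmo-3 fell by 0.91 and fmo-4 fell by 0.90 on the log2 scale. The calls of fmo-3 and fmo-4 were each lost without N2 replicate 2 or 4 or csb-1 replicate 1, 3 or 4. alh-12, an aldehyde dehydrogenase, fell by 0.99. Of 54 flavin monooxygenases and dehydrogenases listed together, 1 was called higher (1.85%, against 0.165% of all genes) and 3 lower (5.56%, against 0.486%), and the median change was −0.11. None was called lower with 75th-percentile scaling or on the 16 vehicle arrays.

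Cytochrome P450 enzymes, which oxidise foreign compounds and fats, were lower where they were called. Of 77 measured, 5 were called lower and none higher (6.49%, against 0.486% of all genes). The median change was −0.27, with 51 of 77 below 0, against 47.7% of all genes. cyp-35B2 had Z-scores of 0.554, 0.625, 0.580 and 0.754 in N2 and 0.183, 0.399, 0.199 and 0.156 in csb-1(ok2335). It fell by 1.47 ± 0.28 on the log2 scale (SE, adjusted p = 0.00578). cyp-35A2 fell by 1.05, cyp-33C4 by 0.90, cyp-33C9 by 0.84 and cyp-32B1 by 0.73. Of the named P450 genes cyp-35B2 kept its call without any single array, while the list's count ran from 1 (without csb-1 replicate 1 or 3 or N2 replicate 4) to 6, and was 2 without csb-1 replicate 4. It was 1 with 75th-percentile scaling and 0 on the 16 vehicle arrays. gst-10, a glutathione S-transferase, was the 1 called among 44 such enzymes (2.27%, against 0.486% of all genes called lower), at −0.93. It lost its call without N2 replicate 1 or 4 or csb-1 replicate 1, 3 or 4. No UDP-glucuronosyltransferase of 67 was called.

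Genes listed as secreted defence proteins moved both ways. Among 111 genes listed as antimicrobial peptides and saposins, 3 were called higher (2.70%, against 0.165% of all genes) and 5 lower (4.50%, against 0.486%). The median change was −0.20. The saposin-like proteins spp-9 and spp-21, next to each other in gene order, rose together. spp-9 had Z-scores of 0.0311, 0.133, 0.0575 and 0.303 in N2 and 0.685, 0.837, 0.714 and 0.701 in csb-1(ok2335), a log2 change of 2.26 ± 0.32 (SE, adjusted p = 0.000302). spp-21 had Z-scores of 0.481, 0.479, 0.312 and 0.602 in N2 and 0.986, 1.12, 1.0 and 1.11 in the mutant, a change of 2.19 ± 0.33 (SE, adjusted p = 0.000750). The groups stayed apart in both genes. pud-4, also counted among the 3, was in the list by its symbol, and its name marks neither kind. It rose by 1.28 and lost its call without N2 replicate 1, 2 or 4.

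The peptides that fell were the caenacins cnc-6 and cnc-4 and the neuropeptide-like proteins nlp-25 and nlp-27, epidermal antimicrobial peptides, with fipr-26. cnc-6 had Z-scores of 1.31, 1.22, 0.723 and 1.47 in N2 and 0.531, 0.524, 0.494 and 0.492 in csb-1(ok2335), and its log2 change was −2.51 ± 0.53 (SE, adjusted p = 0.0157). The mutant arrays were nearly level, whereas N2 spread widely with replicate 3 lowest. cnc-4 had Z-scores of 2.30, 2.11, 1.54 and 2.01 in N2 and 1.46, 1.5, 1.46 and 1.62 in the mutant, and its change was −1.80 ± 0.39 (SE, adjusted p = 0.0184). nlp-25 changed by −1.54 and nlp-27 by −1.38, and in cnc-4, nlp-25 and nlp-27 N2 replicate 3 fell within or below the range of the mutant arrays. The 5 calls were not stable to single arrays. None of them remained without N2 replicate 1, N2 replicate 2, csb-1 replicate 1 or csb-1 replicate 3, 1 lower call remained in the list without N2 replicate 4, and 23 lower calls were made without N2 replicate 3.

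C-type lectins, sugar-binding proteins of which many respond to infection in worms, showed 2 genes called higher (0.830%, against 0.165% of all genes) and 3 lower (1.24%, against 0.486%) among 241, with a median of −0.14. The lower count was 1 with 75th-percentile scaling and 6 with csa-1 NR replicate 4 left out. clec-60, which responds to several bacterial pathogens, had Z-scores of 0.608, 0.672, 1.21 and 0.833 in N2 and 1.41, 1.63, 1.46 and 1.56 in csb-1(ok2335). N2 replicate 3 was the highest N2 array but lay below every mutant array. The log2 change was 2.56 ± 0.42 (SE, adjusted p = 0.00147), about 5.89-fold, and all 3 of its probes went the same way. clec-174 rose by 1.77, whereas clec-146 fell by 1.28, clec-65 by 1.14 and clec-94 by 0.80. The calls of clec-65 and clec-94 were lost without N2 replicate 1 or 4 or csb-1 replicate 1 or 3. None of 16 lysozymes was called.

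Of 110 lysosomal genes 7 were called lower and none higher (6.36%, against 0.486% of all genes). The median change was −0.13, with 74 of 110 below 0, against 47.7% of all genes. The cathepsin B-like proteases cpr-5 and cpr-8, neighbours in gene order, and cpr-6 were among the 7. cpr-5 had Z-scores of 1.22, 1.15, 1.15 and 1.25 in N2 and 0.781, 0.914, 0.806 and 0.863 in csb-1(ok2335), a change of −1.32 ± 0.25 (SE, adjusted p = 0.00673) with no overlap. cpr-6 had Z-scores of 2.03, 1.87, 1.79 and 1.92 in N2 and 1.52, 1.68, 1.56 and 1.70 in the mutant, a change of −1.09 ± 0.20 (SE, adjusted p = 0.00293) that all 7 of its probes shared. The aspartyl protease asp-13 fell by 1.53, cpr-8 by 1.42, the carboxypeptidase ctsa-4.2 by 1.27, the lipase lipl-5 by 0.94 and the glucosylceramidase gba-3 by 0.85. cpr-5 and cpr-6 kept their calls without any single array, and the list's count ran from 2 (without csb-1 replicate 1 or 3) to 11 (without N2 replicate 3), with 4 without N2 replicate 4. None was called lower with 75th-percentile scaling and 2 were on the 16 vehicle arrays.

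hrg-2, a heme-responsive gene, had Z-scores of 1.13, 1.07, 0.848 and 1.14 in N2 and 0.555, 0.738, 0.570 and 0.602 in csb-1(ok2335), a log2 change of −1.61 ± 0.31 (SE, adjusted p = 0.00576). hrg-7, a secreted protease-like protein that signals heme status between tissues, had Z-scores of 2.60, 2.49, 2.30 and 2.39 in N2 and 1.93, 2.09, 1.93 and 2.21 in the mutant, a change of −1.54 ± 0.37 (SE, adjusted p = 0.0396). The groups did not overlap for either gene, but the call of hrg-7 was lost without N2 replicate 1, 2 or 4 or csb-1 replicate 1 or 3. acd-1, an acid-sensitive channel of glia, was at 0.267, 0.257, 0.239 and 0.411 in N2 and at −0.186, −0.0403, −0.110 and −0.305 in the mutant, a change of −1.70 ± 0.29 (SE, adjusted p = 0.00248).

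Cuticle collagens, the structural proteins that the epidermis secretes, had 6 of 176 called lower (3.41%, against 0.486% of all genes) and none higher, with a median change of −0.12. col-80 had Z-scores of 1.80, 1.67, 1.38 and 1.74 in N2 and 1.18, 1.33, 1.21 and 1.26 in csb-1(ok2335), a change of −1.51 ± 0.35 (SE, adjusted p = 0.0289). The other 5 were col-7 at −1.41, col-39 at −1.25, col-98 at −1.05, col-181 at −0.91 and col-45 at −0.87. These calls too depended on single arrays. None remained without N2 replicate 1, 2 or 4 or csb-1 replicate 1 or 3, 3 collagens were called without csb-1 replicate 4, and 11 without N2 replicate 3. None was called with 75th-percentile scaling, 2 were with a replicate block and 11 with csa-1 NR replicate 4 left out.

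**Figure D3:**
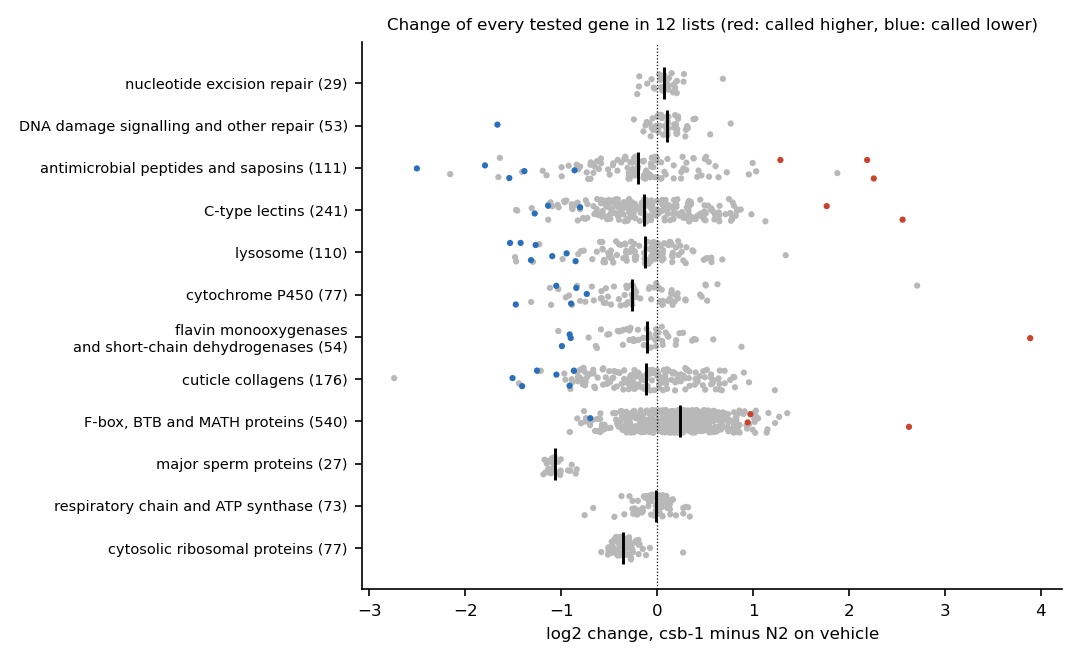
Log2 change of csb-1(ok2335) minus N2 on vehicle (horizontal axis) for every tested gene of 12 lists, with called genes in colour, the list's median as a black line and the number of genes in brackets. The 27 major sperm proteins lie between −1.19 and −0.84 without a call, and nucleotide excision repair genes between −0.21 and 0.68.

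fbxa-192, an F-box protein, had Z-scores of −0.176, −0.175, −0.453 and −0.0464 in N2 and 0.500, 0.535, 0.597 and 0.322 in csb-1(ok2335), a change of 2.62 ± 0.50 (SE, adjusted p = 0.00639). It was 1 of 3 called higher among 540 F-box, BTB and MATH proteins (0.556%, against 0.165% of all genes), with fbxb-20 and fbxb-41, and btb-14 was called lower. The count of 3 was 1 with 75th-percentile scaling and 45 without N2 replicate 3. The calls of fbxb-20, fbxb-41 and btb-14 were each lost without csb-1 replicate 1, 3 or 4, among other arrays. rnh-1.3, of the ribonuclease H family, had Z-scores of 0.931, 0.984, 1.14 and 1.06 in N2 and 1.63, 1.55, 1.66 and 1.61 in the mutant, a change of 2.18 ± 0.27 (SE, adjusted p = 0.000125). ins-2, an insulin-like peptide, was at −0.168, −0.00645, 0.152 and 0.143 in N2 and at 0.436, 0.527, 0.377 and 0.445 in the mutant, a change of 1.56 ± 0.29 (SE, adjusted p = 0.00513). snb-1, the synaptic vesicle protein synaptobrevin, was at 2.46, 2.23, 2.18 and 2.16 in N2 and at 1.99, 1.95, 1.87 and 2.13 in the mutant, a change of −1.02 ± 0.20 (SE, adjusted p = 0.00790) whose call was lost without csb-1 replicate 3. The carnitine palmitoyltransferase cpt-3 fell by 1.19, the nuclear receptor nhr-114 by 0.77 and the transthyretin-related genes ttr-30 and ttr-7 by 1.14 and 0.88, and each of these calls was lost without csb-1 replicate 1, 3 or 4.

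Other genes with the largest changes have no given name. F14F9.6 rose by 1.96, Y65B4BR.1 by 1.64, F54F7.2 by 1.60, C23G10.11 by 1.45 and H02F09.3 by 1.44, while C40H1.8 fell by 1.78. C23G10.11 lost its call without csb-1 replicate 2 or 3, and C40H1.8 without N2 replicate 2 or 4 or csb-1 replicate 1, 3 or 4. F57G4.7 was at −0.0917, −0.0931, −0.126 and −0.0974 in N2 and at 0.480, 0.492, 0.558 and 0.434 in csb-1(ok2335), a change of 2.22 ± 0.31 (SE, adjusted p = 0.000198), and F57G4.9 rose by 1.93. F57G4.6, at −0.919, −0.830, −1.02 and −1.17 in N2 and at 0.296, 0.189, 0.276 and 0.183 in the mutant, was not well above background on any N2 array. Under the main scaling it was at least 8.61-fold higher in the mutant (adjusted p = 0.000134), with a fitted log2 change as low as 2.03 over the alternatives. These names were not found in the reference annotation used here, so only the names of the array's design are given.

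Of the genes called lower, 10 sat in one stretch of the genome. In the gene order of the reference annotation, 10 of 35 tested genes from T28A11.19 to T20D4.10 were called lower (28.6%, against 0.486% of all genes), with at most 10 tested genes between one and the next. They were T28A11.19, T28A11.2, F35F10.13, C17B7.9, C17B7.3, C17B7.12, T20D4.15, T20D4.12, T20D4.11 and T20D4.10, and their log2 changes ran from −1.91 to −1.20 with a median of −1.64. T20D4.10 had Z-scores of 1.0, 0.958, 0.717 and 0.935 in N2 and 0.327, 0.549, 0.389 and 0.363 in csb-1(ok2335), a change of −1.86 ± 0.27 (SE, adjusted p = 0.000352). T20D4.11 was at 1.70, 1.75, 1.33 and 1.65 in N2 and at 1.0, 1.29, 1.08 and 1.17 in the mutant, a change of −1.77 ± 0.28 (SE, adjusted p = 0.00112). In all 10 the arrays of the groups stayed apart, and all 10 calls held without any single array.

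**Figure D4:**
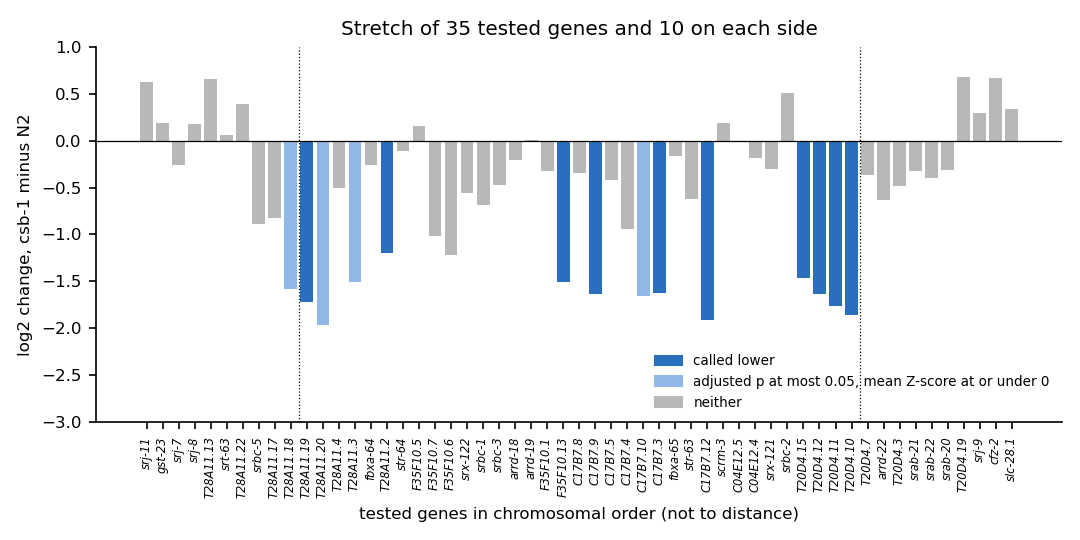
Log2 change of csb-1(ok2335) minus N2 on vehicle (vertical axis) for the 35 tested genes of the stretch (between the dotted lines) and 10 on each side, in chromosomal order. The 10 called genes (dark blue) lie between −1.91 and −1.20, with chemoreceptor and other genes that were not called between them.

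A further 3 genes of the stretch, T28A11.20, T28A11.3 and C17B7.10, passed the adjusted p but were too dim to count as called, and so did T28A11.18, the first tested gene outside it, at −1.58. The stretch was found from these values, so no test is attached to it, and signal shared between similar neighbouring genes was not tested. Averaged over its 10 called genes, the mean Z was 1.02 ± 0.134 (SD, n = 4) in N2 on vehicle and 0.588 ± 0.0926 (SD, n = 4) in csb-1(ok2335) on vehicle. On NR it was 0.888 ± 0.0813 in N2 and 0.662 ± 0.0312 in csb-1(ok2335) (SD, n = 4 each). It was 0.927 ± 0.0896 in csa-1(tm4539) and 0.883 ± 0.0788 in the double mutant on vehicle (SD, n = 4 each). On NR the csa-1(tm4539) arrays were at 0.972, 1.08 and 1.05, with the doubtful array at 0.756, and the double mutant arrays at 0.802 to 0.855. The lowest group means were those of csb-1(ok2335). The double mutant overlapped csa-1(tm4539) on vehicle, and on NR it lay below all csa-1(tm4539) arrays but the doubtful one. Smaller groups of neighbours, by the same rule, were F55H12.4 with fipr-26 and F53B6.4, col-39 with col-80, and cpr-5 with cpr-8, all lower. Also lower were C25G4.7 with T04A11.1, C08F11.13 with C08F11.7, B0222.5 with C24B5.4 and W04E12.7 with M162.5. The only higher group was spp-9 with spp-21.

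None of the listed sperm genes was called, where 0.165% of all genes were called higher and 0.486% lower. All 27 major sperm proteins, the cytoskeletal proteins of sperm, had log2 changes below 0, against 47.7% of all genes. They ran from −1.19 to −0.84, with a median of −1.07. Signal shared between probes of similar genes was not tested, so the 27 may not be separate measures. The mean Z over the 27 was 1.46, 1.39, 0.895 and 1.41 on the N2 arrays. On the csb-1(ok2335) arrays it was 0.977, 1.03, 1.04 and 0.990. N2 replicate 3 lay below all 4 mutant arrays and the other 3 N2 arrays above them, and the median change was −1.58 without that array. Of 66 other sperm genes 46 were below 0, against the same 47.7%, with a median of −0.41 and no call. The 77 oocyte and germline genes had a median of 0.03.

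None of the 73 genes of the respiratory chain and ATP synthase, the 70 mitochondrial ribosomal proteins or the 33 of mitochondrial stress and dynamics was called, with medians of −0.02, 0.13 and 0.13. No autophagy gene of 35, heat shock protein (14 small and 50 others), antioxidant enzyme of 31 or gene of NAD metabolism of 29 was called. Over all genes 0.165% were called higher and 0.486% lower, so lists of these sizes can hold no call at that share alone. The lack of calls does not show that these genes were unchanged. Of 77 cytosolic ribosomal proteins 76 were below 0, against 47.7% of all genes. Their median of −0.35 moved between −0.68 and −0.03 as single arrays were left out and was 0.12 under scaling to the 75th percentile. Scaling that way moved the median of all genes to 0.06.

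Markers of the worm's tissues were checked for the make-up of the samples. Of 34 markers measured, 33 were not called, and snb-1 was the exception. Body wall muscle markers had a median log2 change of −0.51 (4 of 5 below 0) and intestinal markers −0.33 (5 of 6 below 0). Pharyngeal markers had a median of −0.13, epidermal −0.16, germline −0.05, neuronal 0.03 and sperm −0.98. The defining markers of gut, germline and muscle were well above background on at least 3 arrays of each group, while the neuronal marker rgef-1 was well above background on no array and the epidermal wrt-2 on 1. The part of these shifts in the called genes was not tested.

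The same mutation was measured in 3 further comparisons that share no array with this one or with each other. These were csb-1(ok2335) against N2 on NR and the double mutant against csa-1(tm4539) on vehicle and on NR. All 4 were fitted together, so their calls share each gene's estimate of spread and are not independent. On NR 2.05% of all genes were called higher and 0.871% lower. In the double mutant against csa-1(tm4539) 0.961% and 0.298% were called on vehicle, and 1.14% and 1.38% on NR. The array labelled csa-1 NR replicate 4 had a Z of −0.601 for Y68A4A.13, like the arrays with the csb-1 mutation and unlike the other 3 csa-1 NR arrays at 1.44 to 1.52. F22B8.2 was at 0.752 on it and at −1.08, −1.40 and −1.19 on the other 3, so the label of that array is in doubt. Counts on NR in the double mutant, and the values of the genes called in all 4 comparisons, are also given without it.

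Of the 42 genes called higher on vehicle, 40 were above 0 on NR and 29 (69.0%) were called higher there, with a median log2 change of 1.12 against 1.28 on vehicle. In the double mutant against csa-1(tm4539) on vehicle 34 were above 0 and 12 (28.6%) were called higher, with 1 called lower and a median of 0.46. On NR 19 were above 0 and 6 called higher, with 3 called lower and a median of −0.17. Without the doubtful array 22 were above 0 and 10 called higher, with 1 called lower and a median of 0.01.

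Of the 124 genes called lower, 117 were below 0 on NR and 38 (30.6%) were called lower, with a median of −0.60 against −0.97 on vehicle. In the double mutant against csa-1(tm4539) 97 were below 0 and 20 (16.1%) called lower on vehicle, with a median of −0.38. On NR 82 were below 0 and 8 called lower, with 6 called higher and a median of −0.13. Without the doubtful array 85 were below 0 and 12 called lower, with 2 called higher and a median of −0.25. Over all genes, 46.4% to 53.6% had a given sign in these comparisons.

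**Figure D5:**
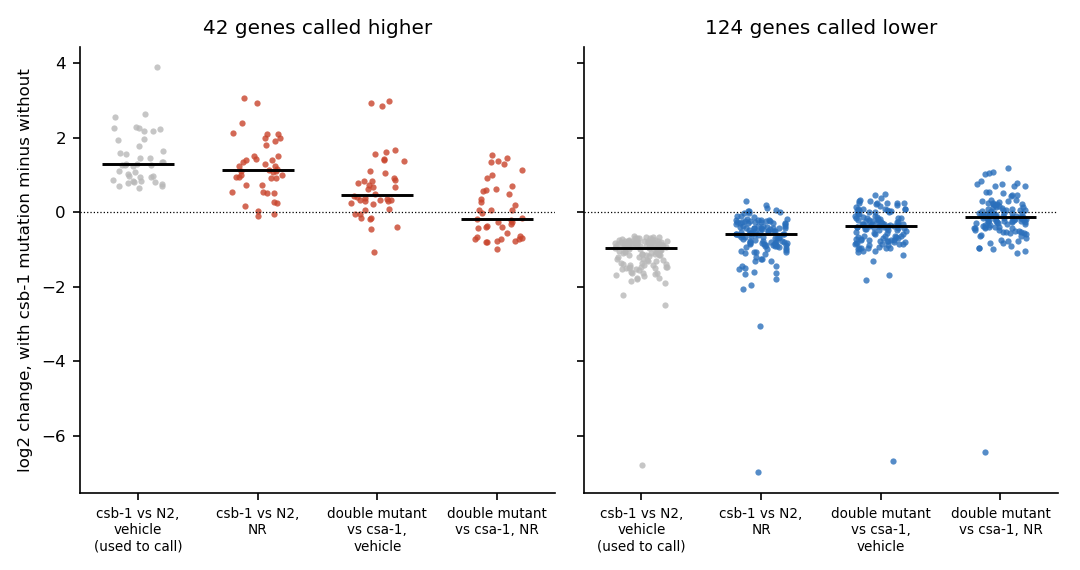
Log2 change with the csb-1 mutation minus without (vertical axis) for the 42 genes called higher and the 124 called lower on vehicle, in the comparison that called them (grey) and in 3 comparisons on other arrays (colour), with the median as a black line. Medians of the genes called higher run from 1.28 to 1.12, 0.46 and −0.17, and those of the genes called lower from −0.97 to −0.60, −0.38 and −0.13, and without the doubtful array the last of each is 0.01 and −0.25.

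In all 4 comparisons 8 genes were called in the same direction, 5 higher and 3 lower, or 6 higher and 4 lower without the doubtful array, with R07C12.1 and clec-65 added. Y68A4A.13 changed by −6.99 on NR and by −6.67 and −6.43 in the double mutant on vehicle and on NR (−8.37 without the doubtful array). Its Z-scores lay between −0.880 and −0.213 on all 16 arrays labelled with the csb-1 mutation and between 1.34 and 1.64 on the others, apart from the doubtful array. The label of that array was doubted partly from this gene, so neither the split nor the −8.37 is independent of it. fcd-2 changed by −1.63, −1.82 and −1.09 in the same order, and C08F11.13, whose vehicle arrays overlapped, by −1.20, −1.05 and −0.96. Without the doubtful array the last value was −1.41 for fcd-2 and −1.29 for C08F11.13. The 5 higher were spp-9 (2.11, 1.67 and 1.45), spp-21 (2.09, 1.60 and 1.34), clc-32 (1.33, 1.37 and 1.12) and the secreted SCP-like proteins scl-24 (1.81, 2.97 and 1.37) and scl-25 (1.91, 2.85 and 1.29). Without the doubtful array their last values were 1.99 for spp-9, 1.90 for spp-21, 1.53 for clc-32, 1.77 for scl-24 and 1.69 for scl-25. clc-32, of the claudin-like family, lost its vehicle call without N2 replicate 1 or 2 or csb-1 replicate 3, and C08F11.13 without N2 replicate 3 or 4 or csb-1 replicate 1, 3 or 4. The dim genes F22B8.2 (adjusted p from 0.000308 to 0.0101) and Y68A4A.12 (from 0.000103 to 0.00310) also passed the adjusted p in all 3, in the same direction as on vehicle. scl-24, for example, was at 0.498, 0.569, 0.171 and 0.628 in N2 and at 0.980, 1.21, 1.03 and 1.1 in csb-1(ok2335), a change of 2.30 ± 0.34 (SE, adjusted p = 0.000428).

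fmo-2 behaved otherwise. Where csa-1 was also mutated it was not called, with a mean Z of −0.126 ± 0.0904 in csa-1(tm4539) and −0.173 ± 0.0728 in the double mutant on vehicle (SD, n = 4), a change of −0.18 ± 0.43 (SE, adjusted p = 0.890). The difference between the 2 effects of the csb-1 mutation was −4.07 ± 0.61 (SE, limma adjusted p = 0.00839). Of all genes 5 (0.0196%) showed such an interaction, and fmo-2, hmg-6 and C43E11.5 were those among the 166 called genes. hmg-6, with a DNA-binding HMG box, changed by 1.25 in csb-1(ok2335), a call lost without N2 replicate 1 or 2 or csb-1 replicate 1 or 3, and by −1.07 in the double mutant against csa-1(tm4539). On NR fmo-2 was higher in csb-1(ok2335) than in N2 by 2.38.

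Whether NR altered the effect of the csb-1 mutation was tested as an interaction, the change on NR minus that on vehicle. It passed an adjusted p of 0.05 in 20 genes (0.0784%), and none of them was among the 166 genes called on vehicle, whose lowest adjusted p for this interaction was 0.245. The count was 39 without N2 replicate 3, 8 without csb-1 replicate 1, 7 without csb-1 replicate 3 and 38 without the doubtful array. The 5 with the lowest p were srlf-12, F15E6.3, F56D6.9, W02D7.11 and the lectin clec-13. clec-13 changed by −0.89 on vehicle (limma adjusted p = 0.576) and by −4.86 on NR. The difference was −3.97 ± 0.69 (SE, limma adjusted p = 0.0203). On NR its mean Z was 0.318 in N2 and −0.981 in csb-1(ok2335), too dim to count as called there. The size of its change on NR rests on that dim group, and no bound was set. A p that misses the threshold does not show that the 166 genes changed alike with and without NR.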

How the data were processed

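RNA from whole worms (200 ng total RNA a sample) was hybridised to one-colour Agilent 4x44K C. elegans arrays, and the deposited scanner files, made with Feature Extraction 11.5.1.1 per the labels, hold background-subtracted intensity for 45220 spots an array. The authors' deposited Z-scores, a score per probe, differed by at most 0.00503 from scores recomputed over all spots, control spots included. They served as an alternative, with 44 genes called higher and 119 lower. Here log2 of the processed signal was standardised within each array, control spots and 289 probes with outlier flags were left out, and the brightest probe stood for each of 25497 genes, of which 19792 matched the reference gene table. Differences were fitted with limma 3.58.1 in R 4.3.3 on all 32 arrays with Benjamini-Hochberg adjustment, and the code was tested on simulated data. The methods describe 3 biological replicates, whereas 4 arrays a group were used. The limma p-values measure only the spread between arrays within groups, pooled over the 8 groups of the fit. They do not measure the spread of the 8 compared arrays alone. The number of arrays limits the precision.

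The named genes were csb-1 and csa-1, the 15 genes called in each direction with the largest Z-ratio among annotated genes whose groups did not overlap, up to 4 called genes of each list, those called in all 4 comparisons of the mutation and up to 5 with an NR interaction. The comparison and the gene lists were chosen with earlier results of these data known. Other genes named were chosen after their values were seen. Alternatives changed the scaling, background correction, probe choice, arrays fitted and weights, added a replicate block, and left out single arrays. Sequences were not used here.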

Additional observations from a re-analysis of the deposited data

Results flagged for a closer look

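Among 140 groups of 4 arrays examined, 7 held an array far from the other 3. About 1 in 20 would be flagged if the groups were independent. These genes share the same arrays, so the count was not set against that rate. N2 replicate 3 was that array for T28A11.19 (Z = 1.22), col-39 (0.814), nlp-25 (0.468), ttr-30 (0.867), adh-1 (1.25) and F57G4.7 (−0.126), and N2 replicate 4 was for acd-1 (0.411).

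The effect of the csb-1 mutation on vehicle differed with the csa-1 genotype in 5 genes by limma's interaction test. The difference, double mutant minus csa-1(tm4539) less csb-1(ok2335) minus N2, was −4.07 for fmo-2 (adjusted p = 0.00839), −2.32 for hmg-6 (0.0198), 1.43 for C43E11.5 (0.0198), −4.80 for the dim F57G4.6 (0.0260) and −1.43 for the alcohol dehydrogenase adh-1 (0.0484) on the log2 scale.

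The effect of the mutation differed between NR and vehicle most surely in srlf-12 (−2.22, from 0.25 on vehicle to −1.97 on NR), F15E6.3 (1.67, from −0.53 to 1.15), F56D6.9 (1.76, from −0.33 to 1.43), W02D7.11 (−2.36, from −0.50 to −2.85) and clec-13 (−3.97, from −0.89 to −4.86). clec-13 was dim in csb-1(ok2335) on NR.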

How the results depend on the processing

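All 166 called genes kept their direction under each of 20 alternatives, and Y68A4A.13 alone was called in every one. Kept direction is a weak check. Fits that changed only the other arrays, or added a replicate block, have the same group means. Leaving out 1 array reuses the other arrays behind the calls. Against 42 genes called higher and 124 lower, the counts were 73 and 255 with probes well above background only, 1 and 1 on the 8 arrays alone, 17 and 19 on the 16 vehicle arrays, 27 and 227 with array weights, and 18 and 48 without both arrays with the lowest shares above background, an alternative chosen after seeing the data. Fewer were called lower with scaling to the 75th percentile (33), and more with normexp and quantile normalization (231). Without csa-1 NR replicate 4, 51 were called higher and 171 lower. Leaving out 1 array gave 24 to 244 higher and 38 to 370 lower. The share of calls that were higher was 25.3%, against 53.5% with 75th-percentile scaling. Of the 166 genes, 32 were also called in the double mutant on vehicle, 18 with 75th-percentile scaling and 51 with normexp and quantile normalization. On NR the 14 shared calls became 22 when csa-1 NR replicate 4 was left out and 23 with array weights. The 20 genes with an NR interaction became 62 with quantile normalization, 81 with normexp and quantile normalization, 38 without csa-1 NR replicate 4, 217 with array weights, and 7 to 39 without single arrays. The cause of these shifts was not tested, and slide and genotype cannot be told apart. Same-numbered arrays did not deviate together (correlations −0.11, −0.18, 0.20 and −0.51), so the numbers do not pair the samples, and with a replicate block 38 genes were called higher and 112 lower.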

Other observations

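Of the genes that passed the adjusted p, 66 were not called, 54 because their mean Z was at or under 0 and 12 because of their Z-ratio. They include, chosen after their values were seen, the insulin-like peptide ins-19 (a fitted log2 change of 2.85), the caenacin cnc-1 (−1.64) and the acyl-CoA dehydrogenase acdh-1 (−1.53).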
